A study of Mus musculus with 4 samples.

Results

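Tight junction genes other than the claudins were examined in 4T1, a cell line from a mouse mammary carcinoma. They comprised occludin and the other MARVEL-domain proteins (Ocln, Marveld2, Marveld3), the angulin Lsr, the immunoglobulin-type membrane proteins F11r and Cxadr, and the scaffold and plaque proteins Tjp1, Tjp3 and Cgn. Every probe set that the platform annotation pairs with just 1 of these 9 symbols was taken, which gave 19 of the 45101 probe sets on the array; the annotation names 18193 genes in all. The compared cells were CD44v8-10-positive 4T1 cells (2 arrays) and CD44v8-10-negative 4T1 cells (2 arrays), where CD44v8-10 is a splice form of the surface receptor CD44 that carries variant exons. Both were the same cell line, grown in RPMI medium with bovine serum under normoxia and picked by hand under a microscope, and total RNA was labelled with biotin and hybridised to Affymetrix arrays. Whether the 2 arrays of a group stem from different cultures is not in the labels, and the p-values then measure only a spread that may be technical.

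Tight junctions close the space between neighbouring epithelial cells near their apical side. Claudins form the strands of the junction. Occludin and its relatives sit in or beside the strands, tricellulin (Marveld2) and the angulins gather where the corners of several cells meet, and the zonula occludens proteins and cingulin lie underneath and tie the membrane proteins to actin. In mammary and other glandular epithelia these proteins separate the lumen from the tissue, and many of them are lost when epithelial cells take on a mesenchymal state.

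The 4 arrays differed in brightness, with trimmed means of 220 to 237 for the positive arrays against 196 to 345 for the negative arrays, so the deposited intensities were quantile normalized. Over the 27022 probe sets above the filter on dim signals, Pearson correlations between arrays were 0.961 to 0.981, and the highest joined positive replicate 1 with negative replicate 1, not 2 arrays of 1 group. The cells carried the markers of their label. The epithelial keratin Krt8 averaged 8525 ± 431 in the positive cells against 8204 ± 686 in the negative cells, with 12402 ± 843 in the positive and 11772 ± 1713 in the negative cells for Krt18. Cdh1, E-cadherin, averaged 3418 ± 119 in the positive and 2922 ± 1107 in the negative cells (SD, n = 2 each). Of 9 fibroblast, 8 endothelial and 6 lymphocyte markers on the array, 3, 2 and 1 passed the filter, and Col1a1, Pdgfrb, Pecam1, Tie1, Cd3e and Cd4 were below it. Of 8 macrophage markers 5 passed it, namely Csf1r, Adgre1, Cd14, Cd68 and Laptm5. Itgam, a myeloid integrin chain, and Ptprc, the leukocyte antigen CD45, did not.

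None of these 9 genes passed the test between CD44v8-10-positive and CD44v8-10-negative cells. The log2 fold changes of Marveld3, Tjp3 and Lsr were 0.93, 0.79 and 0.44, and those of Cxadr and Tjp1 -0.19 and -0.17. Of the 19, 16 lay above the filter, and limma called 0 of these 16 at an adjusted p of 0.05 (two-sided, Benjamini-Hochberg over 27022 probe sets; the lowest adjusted p was 0.959), with 2 higher, both of Marveld3, at an unadjusted p under 0.05, as were 2.04% of all probe sets. The dimmer of these Marveld3 probe sets averaged 14.8 on its negative arrays and passed the filter through its positive arrays. Among all probe sets tested 9 were called higher, or 0.0333%, and 0 lower. Arrays centred on their medians gave 12 called higher and 5 lower, and unscaled arrays 3 higher and 1 lower, again with 0 member probe sets.

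Taking for each gene its brightest probe set, 7 of the 9 genes had a log2 fold change above 0, against 54.3% of the 11956 genes tested. Their median was 0.15 and that of all genes tested 0.028, on the log2(value + 16) scale used for every fold change here, which understates differences of dim probe sets. In 3 genes, Marveld3, Tjp3 and Lsr, each positive array exceeded each negative array, where 18.5% of all genes did. Tjp3 averaged 15.5 on its negative arrays, below the filter level of 19.4, and passed the filter through its positive arrays. Its place among the 3 is therefore no independent support. In 1, Cxadr, both lay below, where 13.8% did. In the other 5, Ocln, Marveld2, F11r, Tjp1 and Cgn, the groups overlapped. Negative replicate 1 was the lowest array in 6 of the 9 genes. Without it 4 of the 9 genes lay above 0 and the median was -0.00035. Without positive replicate 2 there were 4 of the 8 genes still tested above 0, with a median of -0.010.

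**Figure D1:**
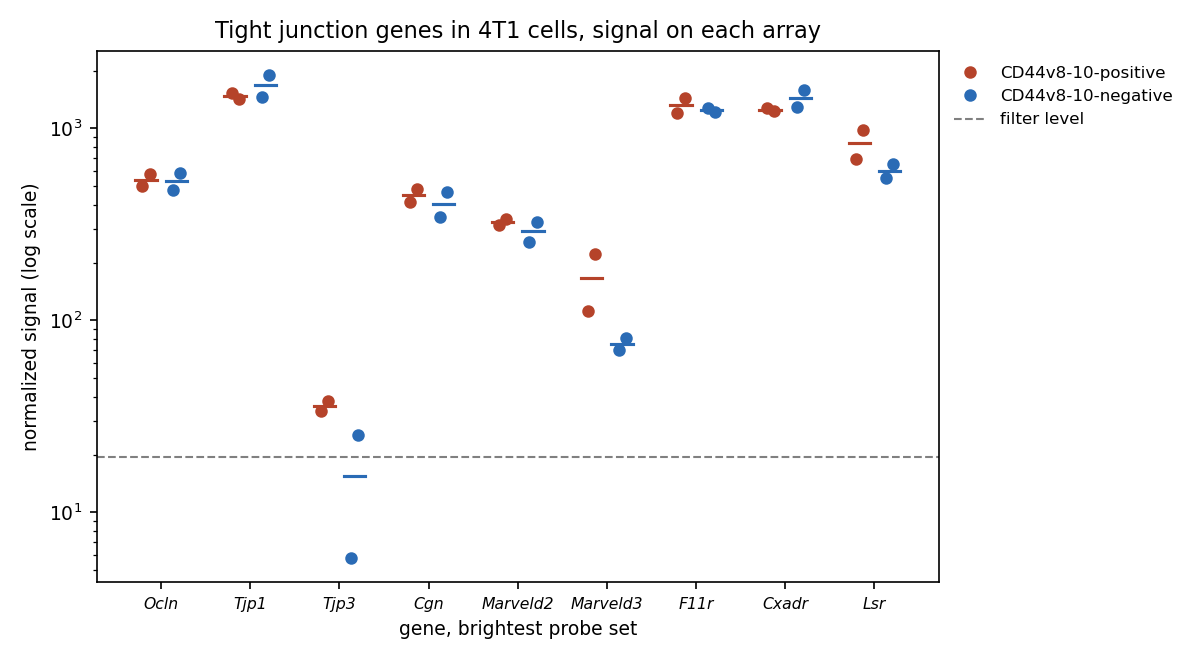
Normalized signal (log axis) of the brightest probe set of each of the 9 tight junction genes. Points are arrays, 2 CD44v8-10-positive in red left of 2 CD44v8-10-negative in blue, short bars are group means, and the dashed line is the filter level of 19.4. The colours separate for Marveld3, Tjp3, Lsr and, with the positive arrays lower, Cxadr, and overlap for the other 5 genes.

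Promoter windows of the member genes, from 250 bases before to 50 bases after an annotated start site, were taken from RefSeq (GRCm38.p6) for 7 of the 9 genes, in 10 windows; Marveld3 and Cxadr had no entry. They were searched on both strands for the E-box CACCTG, read by SNAIL and ZEB repressors, for the GC box GGGCGG and for the grainyhead-like motif AACNGGTT. The E-box lay in windows of 5 of the 7 genes (Ocln, Tjp3, Marveld2, F11r and Lsr), against 22.6% of 27025 genes. The GC box lay in windows of 6 of the 7, against 38.2%, and the grainyhead-like motif in 1, Cgn, against 2.35%. A match describes the letters and no binding, and the share of all genes includes genes of every kind. Lsr and Tjp3 are shown because their groups did not overlap, and Ocln and Tjp1 because theirs did. All are printed 5′ to 3′ on the strand of the gene, the minus strand, with capitals for the 3 motifs, none of which overlap here; for Tjp3 and Ocln 1 of their 2 windows is shown.

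Lsr, chr7:30973420-30973719: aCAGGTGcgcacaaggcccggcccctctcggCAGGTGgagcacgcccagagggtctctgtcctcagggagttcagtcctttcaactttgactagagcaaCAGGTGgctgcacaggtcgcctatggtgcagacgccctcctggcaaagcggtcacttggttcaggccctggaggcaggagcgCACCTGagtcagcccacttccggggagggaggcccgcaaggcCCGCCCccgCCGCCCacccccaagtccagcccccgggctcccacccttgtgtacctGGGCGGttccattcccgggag
Tjp3, chr10:81291532-81291831: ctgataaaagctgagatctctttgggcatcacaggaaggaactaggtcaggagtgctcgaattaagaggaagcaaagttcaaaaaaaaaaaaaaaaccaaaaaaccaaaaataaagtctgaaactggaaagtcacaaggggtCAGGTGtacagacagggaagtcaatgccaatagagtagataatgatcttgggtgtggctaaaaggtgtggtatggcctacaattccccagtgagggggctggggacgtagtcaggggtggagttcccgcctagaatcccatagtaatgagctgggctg
Ocln, chr13:100552669-100552968: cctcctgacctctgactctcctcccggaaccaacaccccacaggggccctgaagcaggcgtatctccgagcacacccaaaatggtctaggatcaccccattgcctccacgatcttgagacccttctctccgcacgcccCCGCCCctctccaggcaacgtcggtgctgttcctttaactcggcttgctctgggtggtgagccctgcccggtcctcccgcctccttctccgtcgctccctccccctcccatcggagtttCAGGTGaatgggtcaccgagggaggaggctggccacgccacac
Tjp1, chr7:65371195-65371494: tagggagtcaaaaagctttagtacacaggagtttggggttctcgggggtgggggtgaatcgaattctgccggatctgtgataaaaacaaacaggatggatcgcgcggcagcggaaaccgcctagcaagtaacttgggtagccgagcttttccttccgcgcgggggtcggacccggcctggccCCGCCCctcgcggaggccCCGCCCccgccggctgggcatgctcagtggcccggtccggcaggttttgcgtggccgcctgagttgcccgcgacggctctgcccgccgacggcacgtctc

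The Lsr window held 4 E-boxes, with first bases at -249, -219, -151 and -69 from the start site, and 3 GC boxes. The Tjp3 window held 1 E-box, at -108, and 0 GC boxes, and that of Ocln 1 E-box, at 8, and 1 GC box. The Tjp1 window held 0 E-boxes and 2 GC boxes. The Ocln window not shown held 2 E-boxes, and that of Tjp3 held 1. Among genes with a window, E-boxes were present in Lsr and Tjp3, whose signals were separate. They were also present in Ocln, Marveld2 and F11r, whose signals overlapped, and absent in Tjp1 and Cgn, which overlapped too. A link between E-boxes and separation was not tested.

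Ocln encodes occludin, a membrane protein of the strands that binds zonula occludens scaffolds. Its signal was 499 and 577 in the positive samples, against 475 and 586 in the negative samples. Each group spanned nearly the same range. The log2 fold change was 0.023 ± 0.22 (SE), with a 95% interval of -0.48 to 0.52, which is 0.72-fold to 1.44-fold (limma adjusted p 0.995). A second Ocln probe set read 103 and 93.0 on the positive arrays against 91.0 and 87.3 on the negative ones, without overlap, at a log2 fold change of 0.12 ± 0.26 (SE; limma adjusted p 0.980). Before normalization the brightest array, negative replicate 2, had the highest Ocln intensity, 824, with 464 and 509 in the positive samples and 366 in negative replicate 1, and both Ocln probe sets were then below 0 (-0.17 and -0.093). All genes tested also moved in that setting, to a median of -0.15.

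Marveld2, the tricellulin gene, is a relative of occludin that marks tricellular contacts. It had 316 and 337 in the positive samples, against 256 and 326 in the negative samples. Negative replicate 2 lay between the positive arrays. Its difference was 0.16 ± 0.23 in log2 (SE), with an interval of -0.36 to 0.69 and a limma adjusted p of 0.966.

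Marveld3 is the remaining gene of the occludin family. Its brightest probe set read 112 and 221 in the positive samples, against 69.7 and 80.9 in the negative samples. The groups did not overlap, but positive replicate 1 was closer to negative replicate 2 than to positive replicate 2. The difference in log2 was 0.93 ± 0.32 (SE; 95% interval 0.22 to 1.65), with an unadjusted p of 0.0156 and a limma adjusted p of 0.959. A second probe set had 67.5 and 30.0 in the positive samples, against 12.4 and 17.1 in the negative samples, where both were below the filter level of 19.4. It passed the filter through its positive arrays. Here positive replicate 1, not replicate 2, was the higher. Its log2 fold change was 1.01 ± 0.41 (SE), with an unadjusted p of 0.0312 and a limma adjusted p of 0.959, and is no exact size because of the dim negative arrays. The third Marveld3 probe set was below the filter level on all 4 arrays, at 2.50 and 4.65 on the positive against 3.33 and 9.75 on the negative arrays. Without positive replicate 2 the log2 fold change of the brightest probe set was 0.50. Genes with an unadjusted p under 0.05 and a higher signal in positive cells made up 2.33% of all genes tested, and Marveld3 was 1 of 9 here.

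Lsr encodes the angulin lipolysis-stimulated lipoprotein receptor, which recruits tricellulin to tricellular contacts. The signal of Lsr was 691 and 977 in the positive samples, against 554 and 650 in the negative samples. The lower positive array exceeded the higher negative array by a small margin. In log2 the difference was 0.44 ± 0.23 (SE), with an interval of -0.08 to 0.97, or 0.95-fold to 1.95-fold (limma unadjusted p 0.0878, adjusted p 0.959). Its other probe set was dim, at 1.20 and 3.95 on the positive against 3.43 and 4.80 on the negative arrays. The brightest probe set gave 0.68 without positive replicate 1 (limma unadjusted p 0.0296, adjusted p 0.355) and 0.20 without positive replicate 2.

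Of the immunoglobulin-type proteins, F11r encodes junctional adhesion molecule A, which helps to place polarity proteins at the junction. F11r had 1201 and 1436 in the positive samples, against 1283 and 1221 in the negative samples, with the negative arrays inside the positive range. Its log2 fold change was 0.069 ± 0.19 (SE; interval -0.36 to 0.50, limma adjusted p 0.981). A dim second F11r probe set, of the less specific kind ending in _x_at, gave -0.25 ± 0.37 (SE), also with overlapping groups.

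Cxadr encodes the coxsackievirus and adenovirus receptor, an adhesion protein of epithelial junctions. Its brightest probe set read 1276 and 1230 in the positive samples, against 1292 and 1577 in the negative samples. The groups were separate by a narrow margin, since positive replicate 1 almost met negative replicate 1. In log2 this was -0.19 ± 0.19 (SE; interval -0.61 to 0.24), with a limma adjusted p of 0.961; it was -0.33 without negative replicate 1 and -0.045 without negative replicate 2. The other 3 Cxadr probe sets above the filter had overlapping groups and log2 fold changes of -0.071, -0.0063 and -0.072. The fifth Cxadr probe set was below the filter level on every array, with 7.58 and 8.43 on the positive against 4.80 and 4.18 on the negative arrays.

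Among the scaffolds, Tjp1 encodes ZO-1, which binds claudins, occludin and actin. Tjp1 had 1536 and 1421 in the positive samples, against 1450 and 1898 in the negative samples, and the groups overlapped. The resulting log2 fold change was -0.17 ± 0.20 (SE; interval -0.61 to 0.28, or 0.66-fold to 1.21-fold, limma adjusted p 0.964).

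Tjp3, the gene of the related scaffold ZO-3, was near the filter level. It read 33.8 and 38.2 in the positive samples, against 5.78 and 25.3 in the negative samples, and negative replicate 1 was below the filter level of 19.4. The groups did not overlap, and the negative arrays differed from each other by more than negative replicate 2 did from the positive arrays. The fitted difference in log2 was 0.79 ± 0.42 (SE), with an interval of -0.15 to 1.74 and a limma adjusted p of 0.959. It was 0.34 without negative replicate 1, 1.17 without negative replicate 2, 1.47 with a pseudocount of 1 and 0.34 with a pseudocount of 64. Marveld3 had a higher log2 fold change than Tjp3 in the reported setting (0.93), but a lower one with a pseudocount of 1 (1.06) and without negative replicate 2 (0.99).

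Cgn encodes cingulin, a plaque protein that joins the scaffolds to the actomyosin ring. Cgn had 412 and 482 in the positive samples, against 345 and 466 in the negative samples, with overlap. The log2 fold change was 0.15 ± 0.24 (SE; interval -0.38 to 0.68, limma adjusted p 0.970). A dim second Cgn probe set ran the other way, with 18.5 and 30.2 on the positive against 37.8 and 40.8 on the negative arrays. Its groups did not overlap, and its log2 fold change was -0.47 ± 0.36 (SE; limma adjusted p 0.959).

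In 7 of the 9 genes the 95% interval of the brightest probe set lay within 2-fold in either direction. The exceptions were Marveld3 and Tjp3. The share of all genes with such an interval was not counted. The median SE over all probe sets tested was 0.27, so the count does not set these genes apart. Centred on each gene's own mean, the profiles most alike over the 4 arrays were those of Tjp1 and Cxadr (Euclidean distance 0.085 on the log2 scale) and of Cgn and Marveld2 (0.11), and the most distant were those of Tjp1 and Marveld3 (1.32). Outside the lists used here, the genes closest to the mean profile of the 9 were Tmem131l (distance 0.015), Kcnab2 (0.020), Vps53 (0.026), Dpp3 (0.029) and Ctxn2 (0.030). Their log2 fold changes were 0.23 to 0.26 and none passed the threshold (limma adjusted p 0.959 to 0.966). As these genes were picked for a profile like the mean of the 9, such fold changes were fixed by the choice. These distances rest on 4 arrays that were normalized together.

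**Figure D2:**
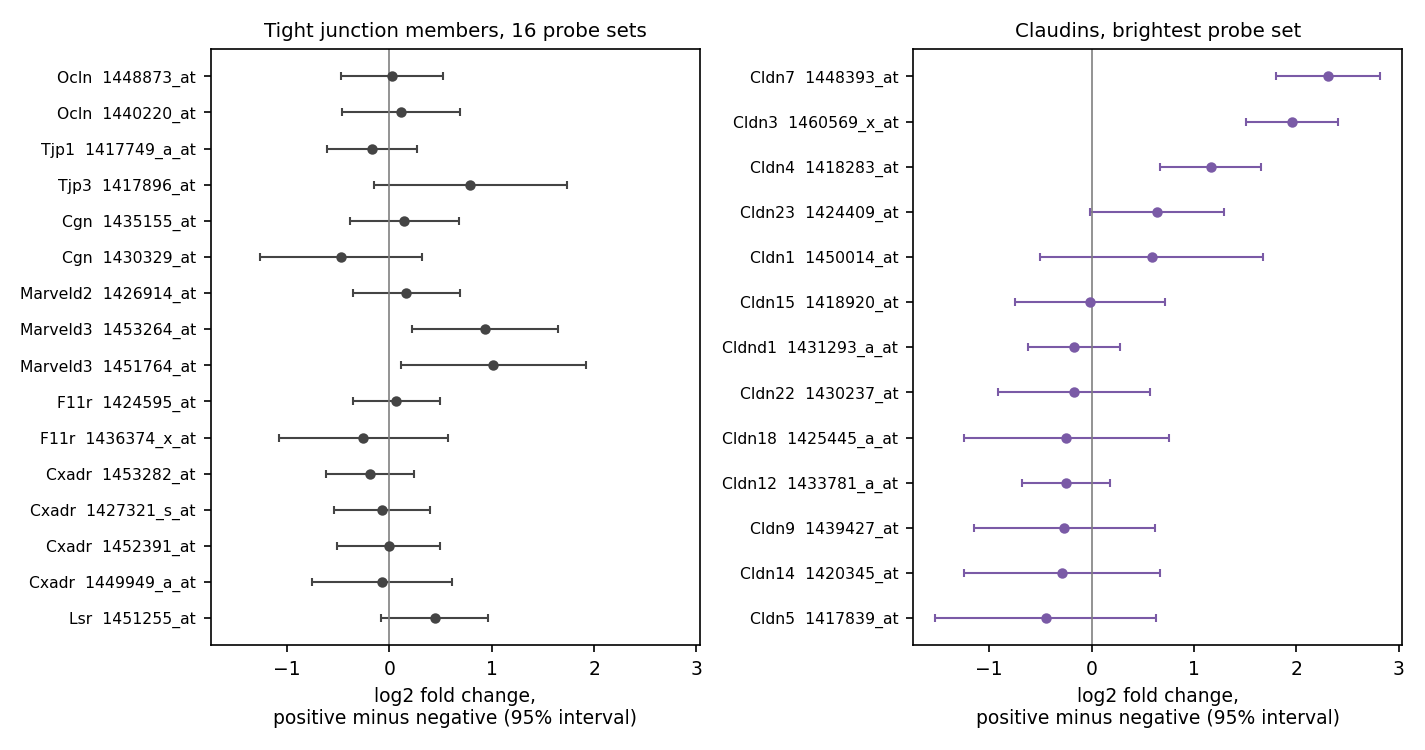
Log2 fold change, positive minus negative, on the log2(value + 16) scale with 95% intervals from limma, for the 16 tight junction probe sets above the filter (left) and the 13 claudins (right). Of the intervals on the left 14 include 0 and the 2 of Marveld3 do not, while those of Cldn7 and Cldn3 lie above 1.5.

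The claudins, measured in the same fit, held larger differences. Of 20 claudin genes on the array 13 were tested and 2 passed higher (Cldn7 and Cldn3), 0 lower, by limma over all probe sets, against 0.0502% of all genes called higher. At an unadjusted p under 0.05 there were 3 higher and 0 lower. The median log2 fold change of the 13 was -0.17, which is the value of the claudin-domain gene Cldnd1. Cldn7 had 1152 and 904 in the positive samples, against 203 and 184 in the negative samples, a log2 fold change of 2.31 ± 0.23 (SE; interval 1.80 to 2.82, limma adjusted p 0.00838). Cldn3 had 2114 and 2221 in the positive samples, against 609 and 490 in the negative samples, a log2 fold change of 1.96 ± 0.20 (SE; interval 1.51 to 2.40, limma adjusted p 0.00838). Both calls were lost without either positive array (limma adjusted p 0.0575 to 0.247), with no filter (0.158), without the intensity trend (0.264 and 0.416) and with no scaling (1.00). In these settings the log2 fold changes were 2.11 to 2.49 for Cldn7 and 1.76 to 1.97 for Cldn3. Cldn4 had 1792 and 1400 in the positive samples, against 798 and 612 in the negative samples, and 1.16 ± 0.22 in log2 (SE; interval 0.67 to 1.65, limma unadjusted p 0.00036, adjusted p 0.457). With the replicate block 3 claudins were called. The intervals of Ocln, Marveld2, Tjp1, Cgn, F11r, Cxadr and Lsr all end below 1 and do not meet those of Cldn7 and Cldn3. Those of Lsr, Marveld2 and Cgn, which end at 0.97, 0.69 and 0.68, do meet that of Cldn4. The difference between genes was not itself tested. Cldn12, with Cldn3 the brightest claudin, had -0.25 ± 0.19 (SE), and the lowest, Cldn5 and Cldn14, had -0.45 and -0.29, with adjusted p of 0.961 and 0.967 by limma. Both of the lowest were dim. Cldn5 read 35.9 and 4.03 on the positive against 27.4 and 28.6 on the negative arrays. For Cldn14 these were 30.7 and 8.69 against 24.4 and 26.5.

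Of 35 further junction membrane and plaque genes on the array 31 were tested and 0 were called in either direction by limma. At an unadjusted p under 0.05 there was 1 higher, where 2.33% of all genes were, and 0 lower. Of the 31, 20 lay above 0 and the median was 0.037. Crb3, the epithelial crumbs protein that anchors an apical polarity complex, was the highest, with 97.0 and 177 in the positive samples, against 76.8 and 62.7 in the negative samples (log2 fold change 0.79 ± 0.31 (SE), limma adjusted p 0.959). Pard6g, a partitioning-defective polarity protein, had 0.44. Without positive replicate 2 these were 0.42 for Crb3 and 0.19 for Pard6g. The lowest were Jam2, a junctional adhesion molecule known from endothelium, at -0.50, and the angiomotin-like Amotl1, at -0.23. The brightest were the Y-box factor Ybx3, which binds ZO-1, at 0.014, and cortactin, Cttn, at -0.10.

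Regulators of epithelial junction genes likewise gave 0 calls among 15 tested of 21 on the array (limma), with 1 higher and 1 lower at an unadjusted p under 0.05; 1.38% of all genes were lower by that rule. Of these 15, 12 lay above 0 and the median was 0.19. The epithelial zinc finger factor Ovol1 had 88.3 and 107 in the positive samples, against 37.5 and 51.9 in the negative samples (0.91 ± 0.29 (SE), limma adjusted p 0.959), and its relative Ovol2 had 0.71, or 0.33 without negative replicate 1. Zeb2, a repressor of epithelial genes, had 118 and 122 in the positive samples, against 190 and 218 in the negative samples (-0.69 ± 0.24 (SE), limma adjusted p 0.959). The other repressors of the SNAIL and ZEB families lay above 0 or were not tested. Zeb1 had 36.8 and 33.2 in the positive samples, against 9.73 and 26.3 in the negative samples (0.63 ± 0.40 (SE), limma adjusted p 0.959). Snai1 had 108 and 153 in the positive samples, against 85.7 and 103 in the negative samples (0.40 ± 0.27 (SE), limma adjusted p 0.959). Neither gene's groups overlapped, while Snai3 had 0.087 with overlap and Snai2 was below the filter. The brightest tested, Klf5 and Tcf3, had -0.26 and 0.19, and both had overlapping groups.

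**Figure D3:**
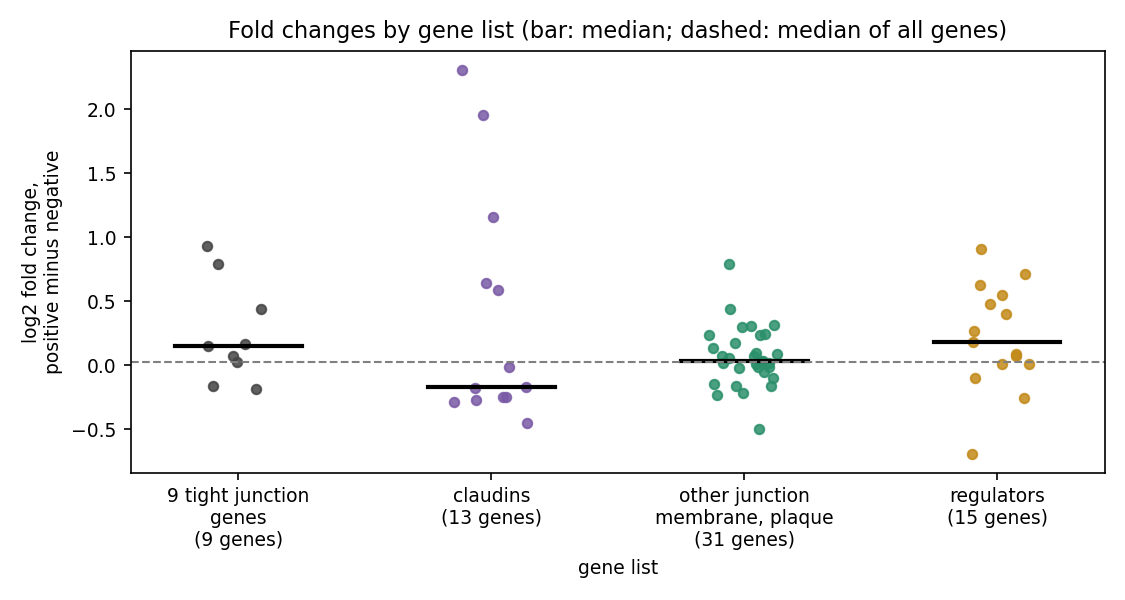
Log2 fold change, positive minus negative, of every tested gene of 4 lists, each gene by its brightest probe set. Bars are list medians (0.15, -0.17, 0.037 and 0.19 from left to right), the dashed line is the median of all genes (0.028), and Cldn7 and Cldn3 stand highest among the claudins.

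Summed signals of epithelial, macrophage and endothelial markers were higher on the positive arrays, and those of fibroblast markers lower. All 8 mammary epithelial and carcinoma markers lay above 0, with summed signals of 34290 and 37748 on the positive against 27083 and 32954 on the negative arrays, and 1, the basal keratin Krt14, was called higher by limma. Epcam had a log2 fold change of 1.34 ± 0.18 (SE; limma adjusted p 0.0554, and under 0.05 in 5 other settings). Macrophage markers summed to 500 and 636 in the positive samples, against 439 and 395 in the negative samples, with both positive arrays above both negative ones in 4 of the 5 tested, where 18.5% of all genes were so; Ptprc read 1.55 and 12.65 on the positive against 0.825 and 2.05 on the negative arrays. Endothelial markers summed to 164 and 124 in the positive samples, against 111 and 103 in the negative samples. The 2 tested, Esam and Cldn5, had log2 fold changes of 0.034 and -0.45, both with overlapping groups. The other 6 in the sum were below the filter. Among these, Cdh5 was brightest on positive replicate 1 and Kdr on positive replicate 2, so the higher sum rests on dim signals. Fibroblast markers summed to 179 and 161 in the positive samples, against 216 and 197 in the negative samples, with Pdgfra, a growth factor receptor of mesenchymal cells, at 47.0 and 33.6 on the positive against 108 and 76.6 on the negative arrays (-0.94 ± 0.31 (SE), limma unadjusted p 0.0122, adjusted p 0.959). Pdgfra was the only tested fibroblast marker below 0. Pdpn had 0.37 ± 0.37 (SE) without overlap of the groups, and Col1a2 had 0.045 ± 0.32 (SE) with overlap. The part of these markers in the differences of Marveld3, Tjp3 and Lsr was not tested. In whole-population RNA, fewer cells with a transcript and less transcript per cell cannot be told apart.

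**Figure D4:**
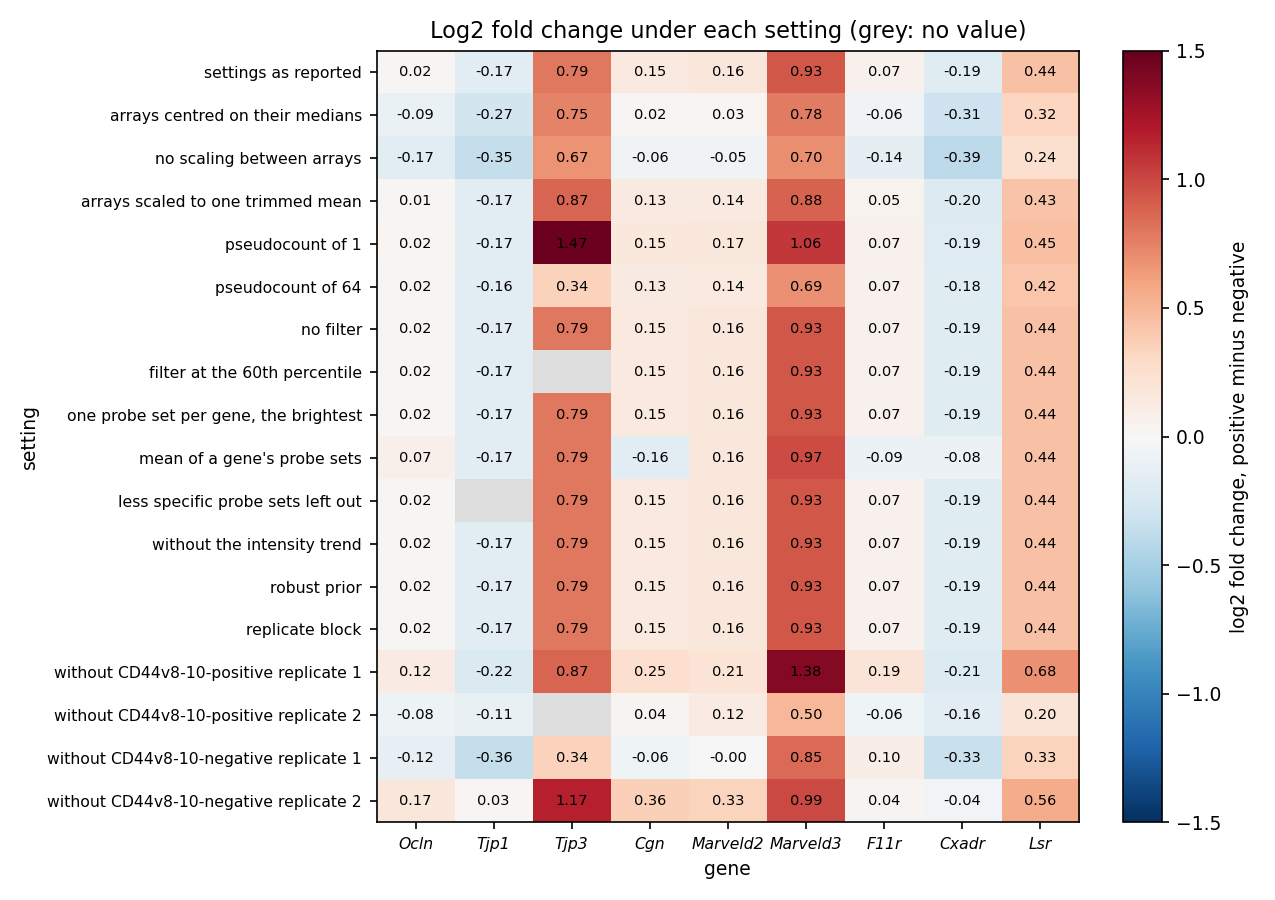
Log2 fold change, positive minus negative, of the 9 genes (columns) under the reported and the 17 other settings (rows); red is higher and blue lower in the positive cells, and grey marks a gene with no value there. Marveld3, Tjp3 and Lsr are above 0 wherever they have a value, and Cxadr below 0, while Ocln, Cgn, Marveld2, F11r and Tjp1 take both signs. Rows that change only the filter, the eBayes options or the block repeat the reported value. Tjp3, which passed the filter through its positive arrays, has no value without positive replicate 2.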

How the data were processed

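Expression was measured in 2 CD44v8-10-positive and 2 CD44v8-10-negative samples, grouped by the sample titles. The deposited values were linear intensities, 1 per probe set and array (0.1 to 22695.6); GCOS is named in the submitters' processing notes without a role, and how they were summarised, background-corrected and scaled is not given in the sources used here. Precision is limited by the 2 arrays per group.

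Intensities were quantile normalized, transformed as log2(value + 16), and stripped of 64 control probe sets and of probe sets whose mean was below the 40th percentile (a signal of 19.4), leaving 27022. Each probe set was fitted in R 4.3.3 with limma 3.58.1 (two-sided moderated test, prior variance following intensity, 10.1 degrees of freedom), and p-values were adjusted by Benjamini-Hochberg over the 27022 (threshold 0.05). A gene is represented by its brightest probe set above the filter. Symbols came from the platform annotation of 2016: 34945 probe sets had 1 symbol, 932 several and 9160 none. The fit was tested on simulated data.

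Members and lists were chosen with earlier results of these data known. Named genes were all members; from each list those past the threshold, the 2 brightest, 2 highest and 2 lowest; 4 epithelial markers; and the 5 genes nearest to the members' mean profile. Krt8, Krt18 and further markers are given as checks of the label; marker genes other than Epcam, Cdh1, Krt8 and Krt18, and Cldn4, Zeb1, Snai1, Snai2 and Snai3, were chosen after their values were seen. The alternatives were scaling, pseudocount (1, 64), filter (none, 60th percentile), gene summary, eBayes options and leaving out each array.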

Additional observations from a re-analysis of the deposited data

How the results depend on the processing

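Limma called 0 member probe sets under each of the 17 alternatives (lowest adjusted p 0.228 to 1.00; 0 to 3 at an unadjusted p under 0.05). Of 248 member results under them, 227 kept their direction and 21 reversed. A probe set's log2 fold change cannot change with the filter, the eBayes options or the replicate block. Nor can it change by keeping 1 probe set per gene or leaving out the less specific ones. Part of the 227 therefore kept their direction by design. Precision here rests on 2 arrays a group, and dim probe sets (Tjp3, both negative arrays of the second Marveld3 probe set) have inexact folds. All probe sets called numbered 17 with arrays centred on their medians, 4 with no scaling, 0 with no filter (45037 tested, 2109 at an unadjusted p under 0.05), 5 with the less specific probe sets left out, 2 without the intensity trend, 21 with the replicate block and 1 to 15 on leaving out an array. Member genes above 0 numbered 3 with no scaling (28.2% of all genes) and 4 to 8 on leaving out an array; their median was -0.058 with no scaling, where that of all genes was -0.15, and -0.010 to 0.33 on leaving out an array.

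Reversed values with arrays centred on their medians were Ocln -0.094 and -0.013 and F11r -0.056. With no scaling they were Ocln -0.17 and -0.093, Cgn -0.058, Marveld2 -0.050, F11r -0.14, Ybx3 -0.033, Tcf3 -0.015 and Kcnab2 -0.0015. With probe sets averaged by gene they were Cgn -0.16, F11r -0.092, Cttn 0.22 and Amotl1 0.11. On leaving out an array the ranges were -0.12 to 0.17 (Ocln), -0.36 to 0.026 (Tjp1), -0.060 to 0.36 (Cgn), -0.00035 to 0.33 (Marveld2), -0.059 to 0.19 (F11r), and -0.21 to 0.070, -0.13 to 0.12 and -0.46 to 0.32 (the dimmer Cxadr probe sets). They were -0.18 to 0.23 (Ybx3), -0.14 to 0.51 (Tcf3), -0.12 to 0.70 (Cdh1), -0.030 to 0.16 (Krt8), -0.065 to 0.25 (Krt18), -0.34 to 0.18 (Cldn14) and -0.75 to 0.054 (Jam2), and Cldn5 was 0.25 in the only such setting where it was tested. The cause of these reversals was not tested. Without a change of sign, Klf5 ranged from -0.51 to -0.0094 and Cldn12 from -0.47 to -0.029 on leaving out an array. Marveld3 stayed above 0, at 0.50 (without positive replicate 2) to 1.38 (without positive replicate 1, limma adjusted p 0.228); the replicate block gave it an adjusted p of 0.450 and changed no member call. Whether samples of the same number shared a day or culture is not in the labels. Their deviations from the group means correlated at 0.093, while the arrays of positive and negative replicate 1 correlated at 0.981, the highest of all pairs. A pairing by number was not used in the reported fit, and these values do not settle it. Tjp3 had no value with the filter at the 60th percentile or without positive replicate 2, and Tjp1 none with the less specific probe sets left out.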

Other observations

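On the deposited scale, before normalization, negative replicate 2 was the highest array for 13 of the 16 tested member probe sets, and negative replicate 1 was the lowest for 12. After quantile normalization these counts were 5 and 8.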
